A study of Homo sapiens with 8 samples.

Results

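Classical non-homologous end joining (NHEJ) was examined through 10 genes: XRCC6, XRCC5, PRKDC, DCLRE1C, POLM, POLL, XRCC4, LIG4, NHEJ1 and PAXX. They were chosen by name as the core factors of the pathway, and each was found among the 58233 gene rows of the table. Of these 10 genes, 9 passed the filter on low counts and were tested. Counts per gene were available from MCF10A-H-Ras cells, a human breast epithelial line that does not form tumours by itself and to which oncogenic H-Ras was added. The control cells and the RBM6 knockout cells RBM6-KO1 (hereafter KO1 cells) were each left untreated or exposed to 5 Gy of ionizing radiation (IR) and collected after 12 h, with 2 biological replicates, A and B, in each of the 4 groups. RBM6-KO1 is a single clone, made with a Cas9 nickase and a pair of guides, so that a property of this clone and a property of RBM6 loss cannot be told apart. All groups share the H-Ras oncogene.

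NHEJ rejoins the 2 ends of a DNA double-strand break without a template and works throughout the cell cycle. The Ku heterodimer (XRCC6 is Ku70 and XRCC5 is Ku80) slides onto each end and recruits the kinase DNA-PKcs, the product of PRKDC. The nuclease Artemis (DCLRE1C) trims ends that cannot be joined as they are, and the polymerases mu (POLM) and lambda (POLL) fill gaps. The ends are sealed by DNA ligase IV (LIG4) with its partner XRCC4, aided by the structurally related scaffold proteins XLF (NHEJ1) and PAXX. The same machinery completes V(D)J recombination in lymphocytes, which epithelial cells do not perform.

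The promoter sequences of these genes played no part in the choice of members. RefSeq (GRCh38.p14) promoter windows, running from 250 bases before to 50 bases after an annotated start, were matched for 8 of the 10 genes and gave 15 windows, since some genes have several starts. XRCC5 and PRKDC had no entry. The 7-base word CCGGAAG, read on either strand (CTTCCGG on the printed strand), was found in at least 1 window of 6 of the 8 genes, against 21.67% of the 11107 tested genes with a window and 12.16% of all 27305 genes with one. This word contains the core recognised by ETS-family transcription factors. XRCC6 and NHEJ1 had no match, and the shares are a description without a test. The stretches around the match are shown for the 6 promoters that hold it, with the word in capitals:
XRCC4: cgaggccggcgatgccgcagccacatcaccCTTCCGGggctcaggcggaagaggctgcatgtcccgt
LIG4: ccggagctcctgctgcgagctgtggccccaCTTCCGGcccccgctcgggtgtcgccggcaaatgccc
DCLRE1C: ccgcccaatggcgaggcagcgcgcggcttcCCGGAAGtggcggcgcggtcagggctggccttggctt
PAXX: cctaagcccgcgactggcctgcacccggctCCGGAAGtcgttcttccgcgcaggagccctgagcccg
POLM: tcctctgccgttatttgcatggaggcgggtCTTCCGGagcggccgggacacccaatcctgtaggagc
POLL: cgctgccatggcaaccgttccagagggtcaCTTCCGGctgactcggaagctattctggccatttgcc
Their positions and strands are XRCC4 chr5:83077326-83077392 (+), LIG4 chr13:108218455-108218521 (-), DCLRE1C chr10:14954054-14954120 (-), PAXX chr9:136992315-136992381 (+), POLM chr7:44082642-44082708 (-) and POLL chr10:101588242-101588308 (-). The first base of the match lies 191 bases before the start in XRCC4, 142 in LIG4, 77 in PAXX, 148 in POLM and 8 in POLL, while in DCLRE1C it lies 6 bases after the start. For LIG4 and POLL, which have several windows, the first window is shown, and for DCLRE1C the second, since its first holds no match.

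The PAXX window is printed whole because it has the highest GC content of the 15 windows, a property of the promoter that entered no fit. It lies at chr9:136992172-136992471 (+) and has 75.67% GC and 38 CpG dinucleotides, against medians of 58.67% and 14 over all windows. The capitals again mark CCGGAAG:
PAXX: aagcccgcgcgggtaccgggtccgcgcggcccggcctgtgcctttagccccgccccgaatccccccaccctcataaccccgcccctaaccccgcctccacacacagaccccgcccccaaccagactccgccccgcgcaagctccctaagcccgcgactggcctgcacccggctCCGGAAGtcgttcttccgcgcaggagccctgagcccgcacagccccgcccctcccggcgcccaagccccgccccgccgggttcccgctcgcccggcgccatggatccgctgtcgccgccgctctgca
The word GGGCGG, bound by SP-family factors, occurred 6 times in this window on either strand. It was found in 7 of the 8 genes, against 75.82% of the tested genes. CCAAT was found in 6 of the 8 genes against 42.69%, and TATAAA in 1, DCLRE1C, against 8.796%. No window of the 8 genes held the full p53 response element, which was found in 0.05402% of the tested genes. Every word was searched on both strands, matches of different words were counted separately even where they overlap, and a match describes these letters only.

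Facts that bear on all results are as follows. Libraries held 15355281 to 29832009 counts on genes. The largest library was the B replicate of irradiated control cells. Levels are given as normalized CPM, the counts scaled to a common library total with TMM factors. RBM6 itself had 66.9 and 68.8 normalized CPM in untreated control cells, 54.5 and 48.9 in irradiated control cells, 61.5 and 63.2 in untreated KO1 cells, and 44.01 and 33.9 in irradiated KO1 cells. Its log2 fold change in KO1 cells was -0.14 untreated (edgeR adjusted p = 0.711) and -0.40 after IR (edgeR adjusted p = 0.535), so both KO1 libraries were below both control libraries in each treatment by a difference that was not called. The 12 breast epithelial markers, which include KRT8, KRT18, EPCAM and CDH1 beside basal keratins, summed to between 4932 and 5774 normalized CPM in control libraries. In KO1 libraries they summed to between 4240 and 4922, and KRT5 lay between 1057 and 1623 over all libraries. Averaged over treatment, 1 of the 12 was called higher and 4 lower in KO1 cells, where 8.68% of all tested genes were called. PTPRC, CD3E and HBB of the blood list had at most 2 counts in any library. CD14 made up most of the blood sum, which was 12.01 to 19.0 normalized CPM in control and 3.66 to 5.58 in KO1 libraries. PECAM1 made up most of the endothelial sum of 1.26 to 2.47 in control and 3.38 to 6.33 in KO1 libraries, with VWF and CDH5 at 4 counts or fewer. Fibroblast markers summed to between 81.1 and 109 normalized CPM in control libraries and to between 119 and 211 in KO1 libraries, with COL3A1 at 0 or 1 count, DCN higher (averaged log2 difference 1.01) and COL1A1 lower (-0.95) in KO1 cells. RAG2 and DNTT, which mark lymphocytes with V(D)J recombination, had 0 counts in every library, and RAG1 had between 0.408 and 1.61 normalized CPM. The irradiated libraries carried the p53 response and fewer proliferation transcripts. The 11 p53 targets summed to 934 to 1016 normalized CPM untreated and 2857 to 3134 after IR, with GDF15 between 39.3 and 67.05 untreated and between 302 and 406 after IR. The 8 proliferation genes summed to 897 to 1243 untreated and 584 to 665 after IR. The part of these markers and response genes in the results on end joining genes was not tested. In bulk RNA, a smaller share of cells of a kind and less RNA in each of them cannot be told apart.

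To compare levels between genes, normalized CPM was divided by the length of the canonical transcript in kb. The Ku genes were by far the most abundant members. On this scale XRCC6 averaged 225 and XRCC5 123 over the 8 libraries, followed by PAXX at 55.4, PRKDC at 19.1, POLM at 17.7, POLL at 12.1, XRCC4 at 6.77, DCLRE1C at 1.99 and LIG4 at 1.82. XRCC6 exceeded XRCC5 per kb in each of the 8 libraries, by 1.41 to 2.39 times. PRKDC per kb was below POLM in the 4 untreated libraries (13.4 ± 2.10 against 21.1 ± 1.62, SD, n = 2, in control cells). After IR it was above POLM in 3 libraries and below it in the A replicate of control cells (18.3 against 20.1), and the control means of 23.5 ± 7.45 and 17.4 ± 3.87 overlapped within their SDs. The ranges of DCLRE1C group means (1.28 to 2.80 per kb) and LIG4 group means (1.26 to 2.15) overlapped, so that the order of these neighbours is not separated by the spread. XRCC4, which binds ligase IV in the cell, exceeded LIG4 per kb by 2.90 to 5.77 times.

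**Figure D1:**
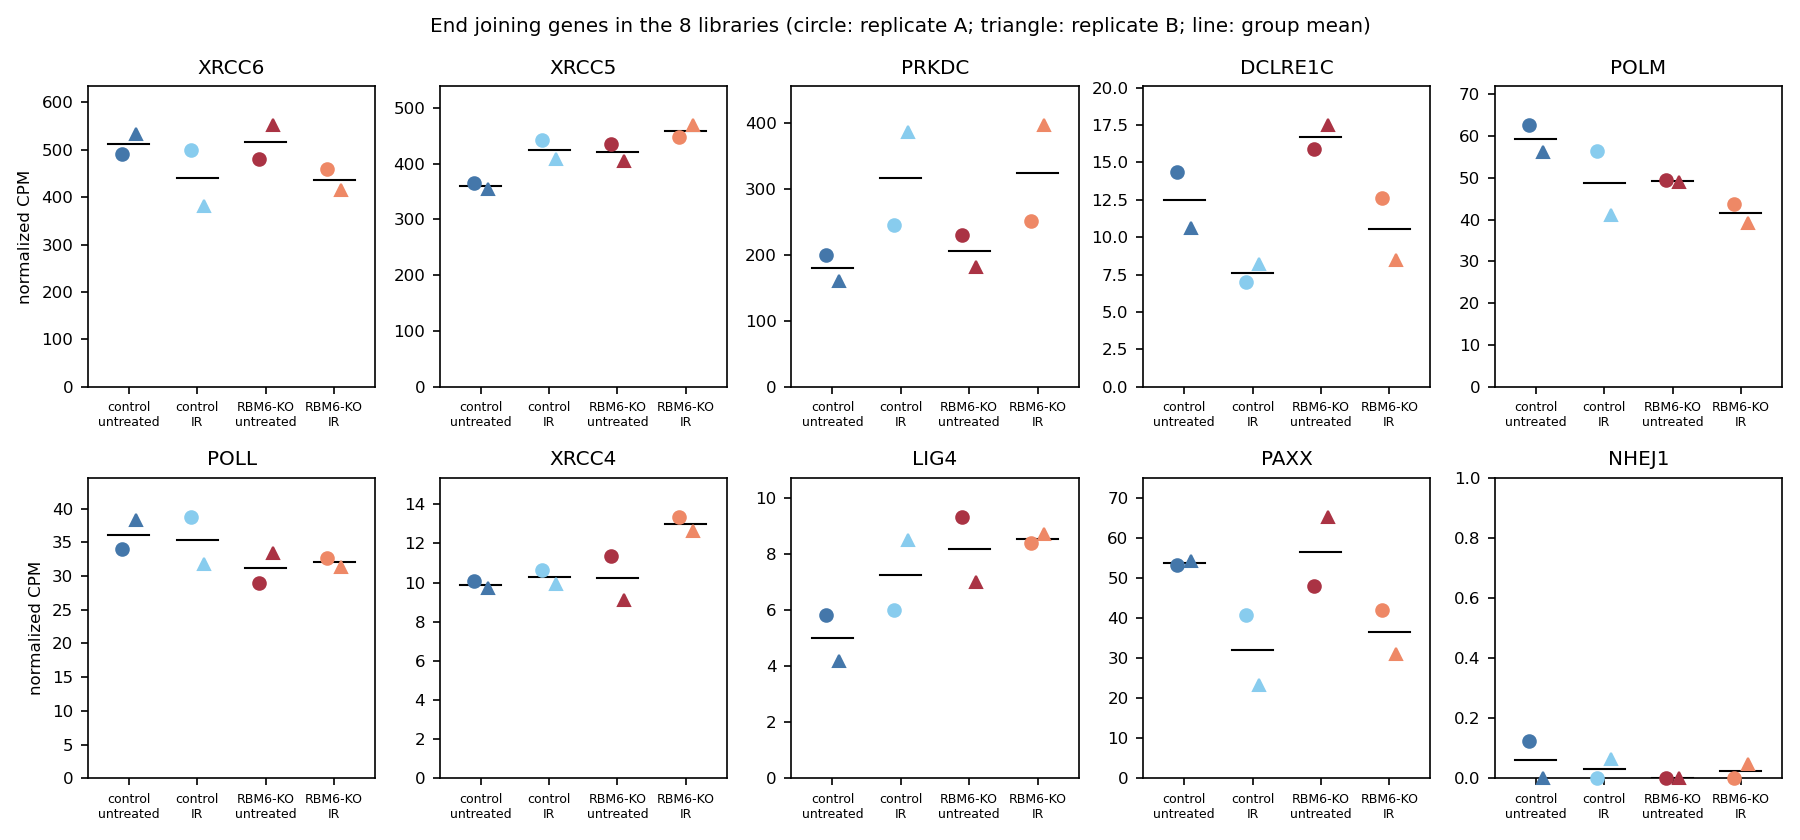
Normalized CPM (vertical axes, linear from 0, a different range for each gene) of the 10 end joining genes in the 4 groups, with circles for replicate A, triangles for replicate B and lines for the group means. PRKDC lay between 160 and 231 in the untreated libraries and between 246 and 397 in the irradiated ones, and NHEJ1 was at or near 0 throughout.

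NHEJ1 (ENSG00000187736, chromosome 2, 219069355 to 219160869, minus strand, GRCh38) was at or near 0 counts. It had 2 and 0 counts in untreated control cells, 0 and 2 in irradiated control cells, 0 and 0 in untreated KO1 cells, and 0 and 1 in irradiated KO1 cells, 5 counts in all. In the libraries with 0 counts, a level of up to 0.154 to 0.195 CPM is allowed, depending on the library, which covers counting error only. All 897 coding bases of NHEJ1 also lie in exons of ENSG00000280537, a protein-coding gene annotated on the same strand that reads through the locus and had 11 counts. A read from the coding part of NHEJ1 therefore fits both genes, and how such reads were counted is not given in the sources used here. Over all annotated exons of NHEJ1 the other gene covers 19.48% of the bases. Of the 262 genes with 95% or more of their coding bases shared in this way, 30.2% had at most 3 counts in every library, beside 27.3% of the genes that share none. The median of the counts summed over the 8 libraries was 72 for those 262 genes and 1087 for the genes that share none. How far the count reflects the NHEJ1 mRNA was not tested, and no fold change is given for it.

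**Figure D2:**
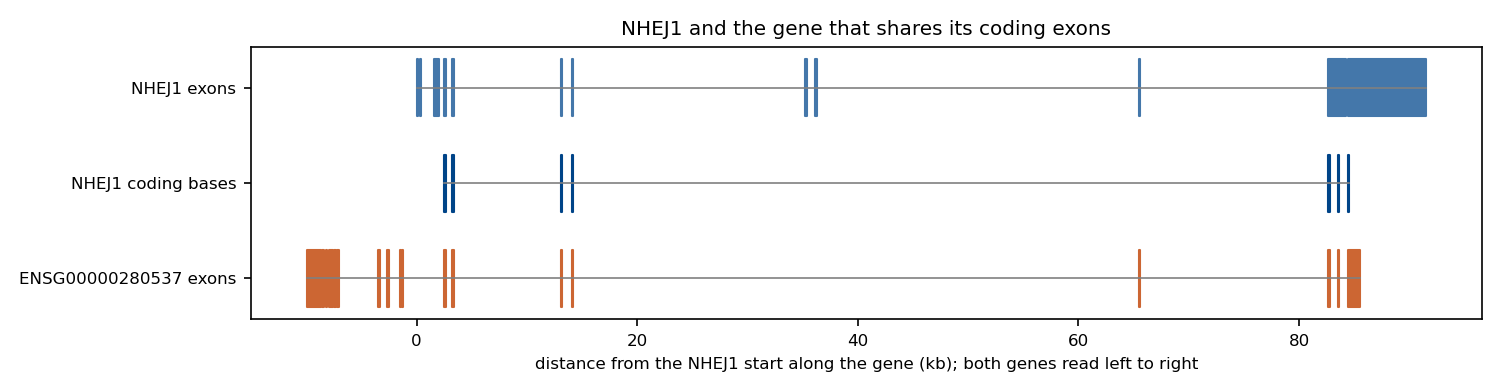
Map of NHEJ1 exons, its coding bases and the exons of ENSG00000280537 on the same strand, with the distance from the NHEJ1 start in kb on the horizontal axis, drawn to scale. Each of the 7 coding exons of NHEJ1 lies under an exon of the other gene, which covers all 897 coding bases.

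The question put to the genotype was whether end joining transcripts differ between KO1 and control cells. No member was called at a Benjamini-Hochberg adjusted p under 0.05 by edgeR's quasi-likelihood test. In untreated cells 0 of 9 were called, where 6.12% of all tested genes were. After IR 0 of 9 were called, against 1.21% of all tested genes. Averaged over both treatments, with all 8 libraries in the fit, 0 of 9 were called against 8.68%. At an unadjusted p under 0.05, 1 of the 9 members passed untreated, 0 after IR and 2 in the average, where 18.4%, 11.1% and 22.9% of all tested genes did, and DESeq2's Wald test called 0 in each comparison. The median log2 fold change of the 9 members was 0.06 untreated and 0.11 after IR, beside 0.0072 and 0.015 over all tested genes.

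In untreated cells the member closest to the threshold was LIG4 (ENSG00000174405, chromosome 13, 108207439 to 108218368). It had 5.83 and 4.18 normalized CPM in untreated control cells and 9.34 and 7.01 in untreated KO1 cells, which is 0.70 higher on the log2 scale (SE, the standard error, 0.27, 95% interval 0.13 to 1.27, unadjusted p = 0.0182, edgeR adjusted p = 0.156). Both KO1 libraries were above both control libraries. After IR the values were 6.02 and 8.50 in control cells and 8.41 and 8.72 in KO1 cells, and the groups overlapped. The log2 difference there was 0.23 (SE 0.25, 95% interval -0.36 to 0.82, edgeR adjusted p = 0.860). LIG4 rested on 78 to 264 counts per library.

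DCLRE1C, the Artemis nuclease (ENSG00000152457, chromosome 10, 14897359 to 14954432), had the other low unadjusted p in the average over treatments. Its log2 difference between KO1 and control cells was 0.44 (SE 0.17, 95% interval 0.063 to 0.82, unadjusted p = 0.0263, edgeR adjusted p = 0.152). Its control libraries lay between 6.99 and 14.4 normalized CPM and its KO1 libraries between 8.47 and 17.5, so the genotypes overlapped.

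For the other members the intervals bound how large a genotype difference could be. XRCC6 (chromosome 22, 41621163 to 41664048) was at 512 ± 29.7 normalized CPM in untreated control and at 516 ± 50.1 in untreated KO1 cells (SD, n = 2 each), with a 95% interval of the log2 difference from -0.29 to 0.29. Its partner XRCC5 (chromosome 2, 216107464 to 216206303) had 360 ± 7.43 and 420 ± 20.5, with an interval from -0.075 to 0.50. The 2 XRCC5 libraries of untreated KO1 cells, at 434 and 405, were above those of untreated control cells, at 365 and 355, and the difference of 0.21 was not called (edgeR adjusted p = 0.460). PRKDC had an interval from -0.15 to 0.52 untreated and from -0.62 to 0.70 after IR. The gap-filling polymerases were nominally lower in KO1 cells. POLM (chromosome 7, 44072062 to 44082530) differed by -0.28 untreated, with an interval from -0.61 to 0.041, and POLL (chromosome 10, 101578882 to 101588270) by -0.23, with an interval from -0.59 to 0.13. XRCC4 (chromosome 5, 83077498 to 83353787) had 9.89 ± 0.253 and 10.2 ± 1.59 normalized CPM untreated, and 10.3 ± 0.497 and 13.001 ± 0.514 after IR, where both KO1 libraries were above both control libraries with a log2 difference of 0.35 (SE 0.20, edgeR adjusted p = 0.636). PAXX, the smallest of the scaffold proteins, differed by 0.06 untreated, with an interval from -0.29 to 0.41. Over both treatments, 0 of 9 members had 4 KO1 libraries that did not overlap the 4 control libraries, against 11.1% of all tested genes.

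**Figure D3:**
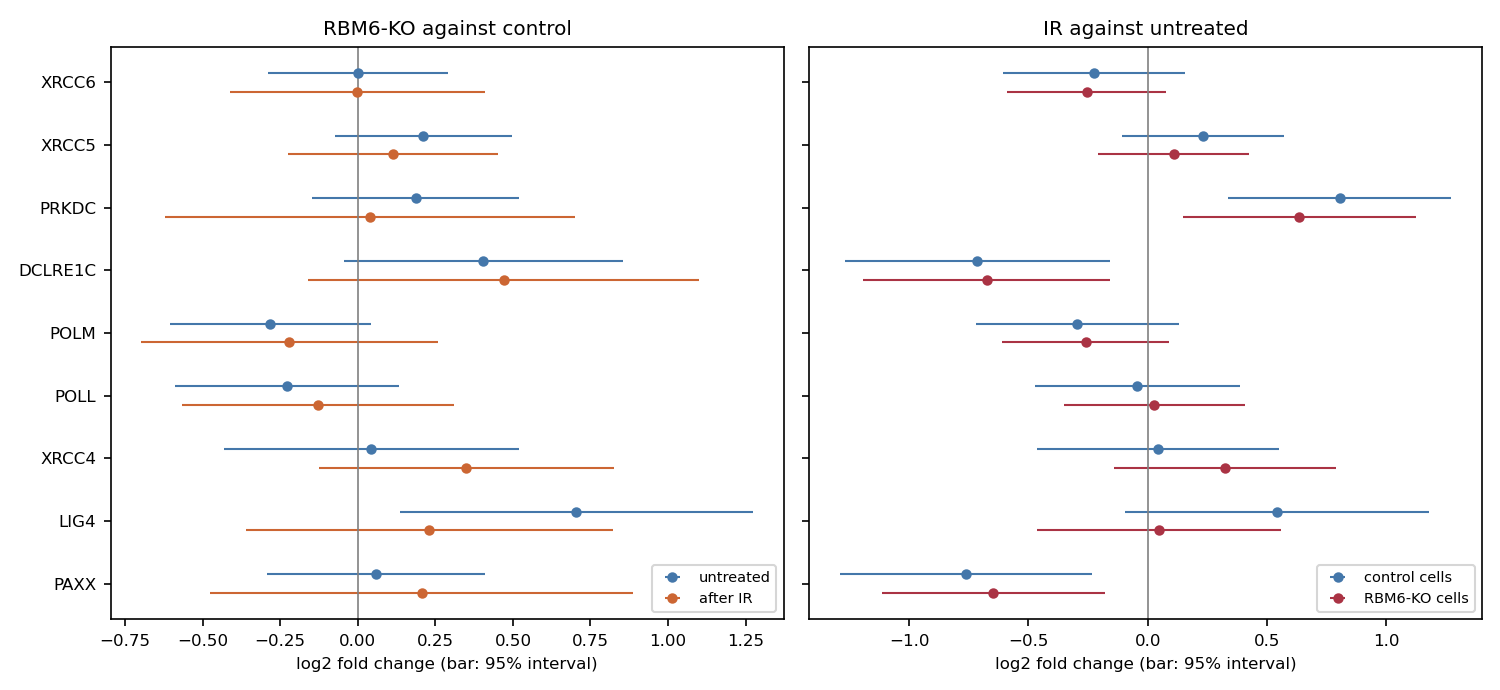
Log2 fold changes (horizontal axes) with 95% intervals from edgeR for the 9 tested members, on the left KO1 against control cells untreated (blue) and after IR (orange), on the right IR against untreated in control (blue) and KO1 cells (red). Of the genotype intervals only that of LIG4 in untreated cells, 0.13 to 1.27, lies clear of 0, while those of PRKDC, DCLRE1C and PAXX lie clear of 0 for IR in both genotypes.

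IR was followed by more PRKDC and less PAXX and DCLRE1C mRNA, and the other 6 members were not called. Averaged over genotype, with all 8 libraries in the fit, 3 of the 9 members were called, 1 higher and 2 lower. Over all tested genes 28.4% were called, 14.9% higher and 13.5% lower, so that this share of members is near the background. The median log2 fold change of the members was 0.0036, beside 0.0080 over all tested genes. Comparing the 4 irradiated with the 4 untreated libraries, 2 of 9 members did not overlap, against 24.1% of all tested genes.

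PRKDC (ENSG00000253729, chromosome 8, minus strand), which encodes the DNA-PK catalytic subunit, had 200 and 160 normalized CPM in untreated control cells and 246 and 388 in irradiated ones. In KO1 cells it had 231 and 182 untreated and 252 and 397 after IR. Each irradiated library was above each untreated library, and the B replicates of both irradiated groups stood well above the A replicates. The log2 fold change averaged over genotype was 0.73 (SE 0.18, edgeR adjusted p = 0.0162), a 1.66-fold rise, higher in 4 of 4 irradiated libraries. In control cells alone it was 0.81 (SE 0.21, edgeR adjusted p = 0.0494), and PRKDC was the 1 member of 9 called there, against 5.72% of all tested genes. In KO1 cells it was 0.64 (SE 0.22, edgeR adjusted p = 0.0967), and 0 of 9 members were called, against 5.67%. In KO1 cells 3 of 9 members had an unadjusted p under 0.05, as did 29.6% of all tested genes, and DESeq2's Wald test called 2, PAXX and PRKDC, and 10.6% of all tested genes. With all 8 libraries in 1 fit, PRKDC in control cells was at 0.82 and not called (edgeR adjusted p = 0.0924). Fits without 1 library were such joint fits, so their values differ from the 4-library fit in more than that library. PRKDC was also not called there without the A library of untreated control cells (0.98) or without the B library (0.67). Nor was it called without the B library of irradiated control cells (0.44), and without the A library it was at 1.11.

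PAXX (ENSG00000148362, chromosome 9, 136992422 to 136993984), the scaffold that binds Ku and stabilises the assembled complex, had 53.3 and 54.3 normalized CPM in untreated control cells and 40.7 and 23.4 in irradiated ones. In KO1 cells the values were 48.0 and 65.4 untreated and 42.1 and 31.0 after IR. Each irradiated library was below each untreated library, and again the B replicates were the more extreme. The log2 fold change averaged over genotype was -0.69 (SE 0.18, edgeR adjusted p = 0.0208), lower in 4 of 4 irradiated libraries. Within control cells it was -0.76 (edgeR adjusted p = 0.0815) and within KO1 cells -0.65 (edgeR adjusted p = 0.0839).

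DCLRE1C had 14.4 and 10.6 normalized CPM in untreated control cells, 6.99 and 8.24 in irradiated control cells, 15.9 and 17.5 in untreated KO1 cells, and 12.6 and 8.47 in irradiated KO1 cells. Within each genotype both irradiated libraries were below both untreated ones, while across genotypes the highest irradiated value, 12.6, was above the lowest untreated value, 10.6. The log2 fold change averaged over genotype was -0.68 (SE 0.17, edgeR adjusted p = 0.0175), with -0.71 in control cells (edgeR adjusted p = 0.113) and -0.67 in KO1 cells (edgeR adjusted p = 0.0963). DCLRE1C shares 159 exon bases with SUV39H2 on the opposite strand, 1.04% of its exon length.

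The 3 averaged calls rested on few libraries. All 3 were lost without the B library of untreated KO1 cells (edgeR adjusted p of 0.0748 for PRKDC, 0.0876 for PAXX and 0.0684 for DCLRE1C) or without the B library of irradiated KO1 cells (0.0547, 0.0722 and 0.0702). PRKDC and PAXX were also lost without the B library of untreated control cells (0.0777 and 0.0680), and DCLRE1C without the A library of that group (0.0614). Without the A library of irradiated control cells 5 members were called, with POLM (-0.39, edgeR adjusted p = 0.0286) and XRCC6 (-0.33, edgeR adjusted p = 0.0298) added to those 3.

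The libraries also differed by the GC content of genes, with genotype as well as with treatment, and by gene length, with treatment. The 10% of genes lowest in GC (at most 38.7% over their exons) had a median log2 deviation from their own mean of 0.25 in the B library of irradiated KO1 cells and of -0.35 in the B library of untreated control cells. The 10% highest in GC (at least 60.8%) had medians of -0.30 and 0.26 in those libraries. Over 16417 genes, the log2 fold change for IR averaged over genotype correlated with GC content with a Spearman rho of -0.25 and with exon length with a rho of 0.30, which describes genes measured in the same 8 libraries. For the genotype difference averaged over treatment these were -0.33 and -0.0041, and with an offset for both properties 0 of 9 members were called between genotypes. Within a library the rho of the deviation with GC content was 0.15 and 0.46 in untreated control cells, 0.25 and -0.21 in irradiated control cells, -0.085 and 0.073 in untreated KO1 cells, and -0.25 and -0.36 in irradiated KO1 cells, so that the treatments overlapped in control cells and not in KO1 cells. PAXX has 65.0% GC, higher than 97.3% of tested genes, and PRKDC has 29073 exon bases, longer than 99.5% of tested genes. DCLRE1C has 41.8% GC and 15295 exon bases, longer than 95.5% of tested genes. With an offset for GC content and length in the fit, the fall of PAXX was smaller and not called, at -0.24 (SE 0.11, edgeR adjusted p = 0.124). PRKDC stayed called at 0.54 (SE 0.12, edgeR adjusted p = 0.00573), and DCLRE1C at -0.89 (SE 0.17, edgeR adjusted p = 0.00204).

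**Figure D4:**
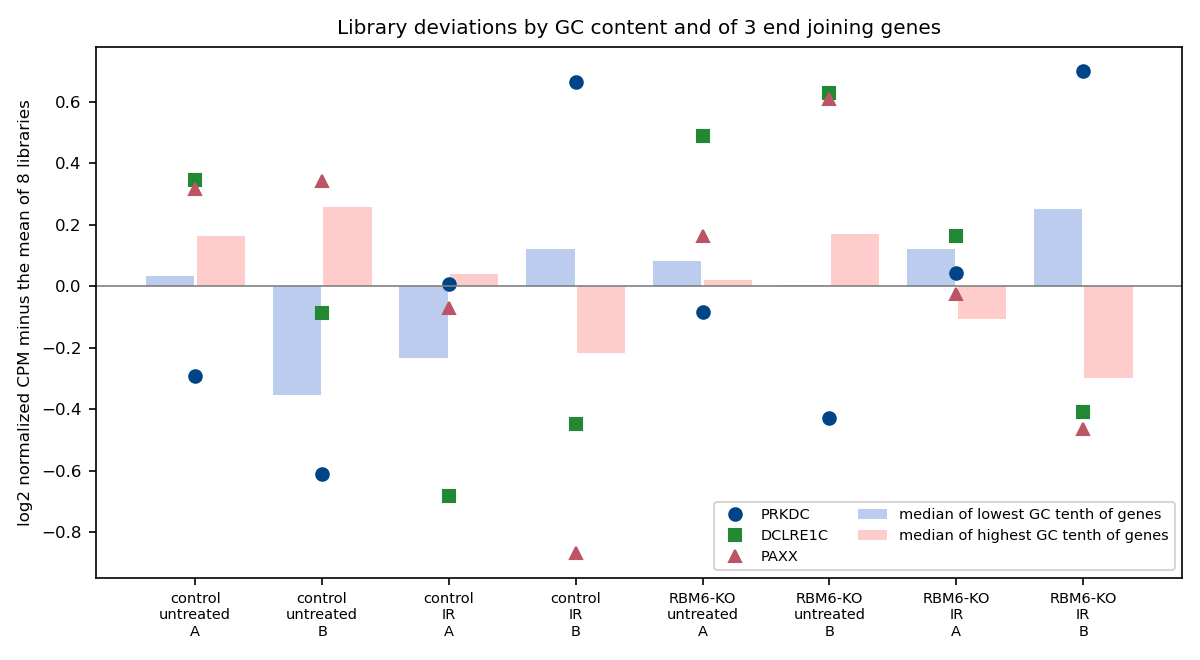
Deviation of log2 normalized CPM from the mean of the 8 libraries (vertical axis) in each library, as bars for the median of the 10% of genes lowest and highest in GC and as points for PRKDC, DCLRE1C and PAXX. In both irradiated B libraries the genes highest in GC and PAXX lie below 0 and PRKDC lies above 0.

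**Figure D5:**
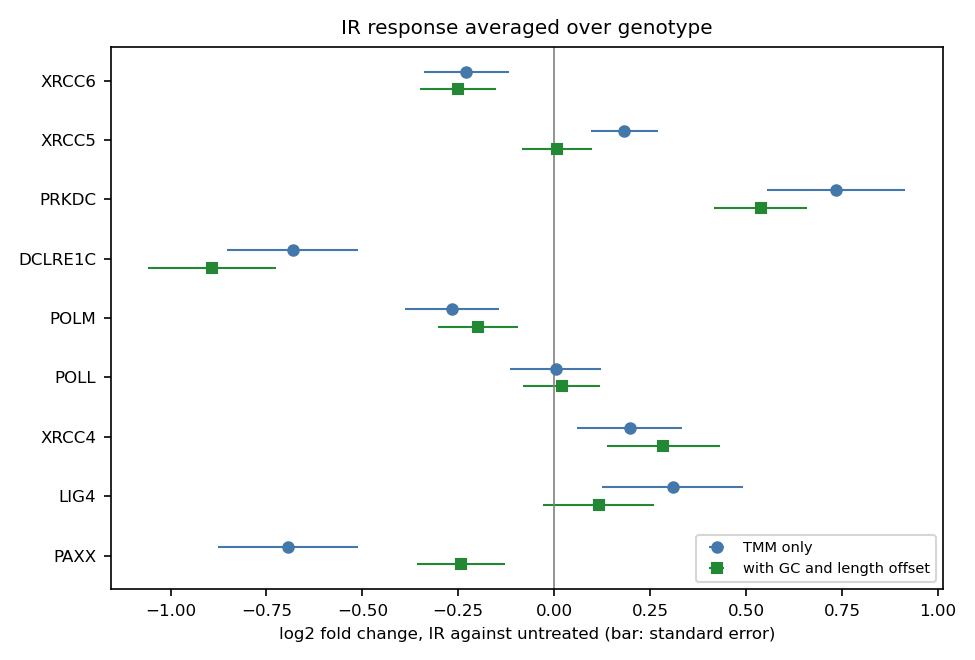
Log2 fold change for IR averaged over genotype (horizontal axis, bars are standard errors) of the 9 members with TMM normalization only (circles) and with an added offset for GC content and length (squares). PAXX moves from -0.69 to -0.24, PRKDC from 0.73 to 0.54 and DCLRE1C from -0.68 to -0.89.

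The Ku genes, the ligation pair and the polymerases were not called for IR. XRCC5 lay between 355 and 434 normalized CPM untreated and between 409 and 469 after IR, with an averaged log2 fold change of 0.18 (95% interval -0.011 to 0.38). XRCC6 lay between 481 and 552 untreated and between 382 and 499 after IR, at -0.23 (interval -0.47 to 0.015). POLM was at -0.27 (interval -0.54 to 0.0047) and POLL at 0.0036 (interval -0.26 to 0.27). XRCC4 was at 0.20 (interval -0.10 to 0.50) and LIG4 at 0.31 (interval -0.096 to 0.71). A 2-fold change in either direction lies outside each of these 6 intervals.

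Genes whose products work in pairs were also compared as ratios of levels per kb. The XRCC6 to XRCC5 ratio was 1.76 to 2.39 in the untreated and 1.41 to 1.80 in the irradiated libraries (log2 difference -0.42, two-sided exact permutation p = 0.0571, 0.171 after Benjamini-Hochberg adjustment over 6 comparisons). The POLM to POLL ratio was 1.45 to 1.83 untreated and 1.24 to 1.44 after IR, with no overlap. Its log2 difference was -0.28, with an exact permutation p = 0.0286, the smallest that 4 libraries against 4 allow, and 0.171 after adjustment. The XRCC4 to LIG4 ratio did not separate the treatments (exact permutation p = 0.686). Between genotypes the exact permutation p of the 3 ratios was 0.400 for the Ku genes, 0.257 for the ligation pair and 0.657 for the polymerases.

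Whether the IR response differed between genotypes was tested as an interaction over all 8 libraries. By edgeR 0 of 9 members were called, and none had an unadjusted p under 0.05. Over all tested genes 0% were called by edgeR, with 306 genes (1.85%) at an unadjusted p under 0.05, and DESeq2's Wald test called 0. A count of 0 of 9 members is near that share and does not show that the responses were equal. The largest member difference was that of LIG4, whose log2 fold change for IR was 0.54 in control and 0.05 in KO1 cells, a difference of -0.49 (SE 0.37, 95% interval -1.30 to 0.32). For PRKDC the interval of the difference was -0.96 to 0.63, for PAXX -0.68 to 0.93 and for DCLRE1C -0.71 to 0.80.

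The profiles most like those of the 3 called members were found as the smallest root mean square difference of log2 normalized CPM, each gene centred on its own mean over the 8 libraries, among 13807 genes. For PRKDC these were G3BP2 (0.0625), SETD7 and HEATR1. For DCLRE1C they were KIF21A (0.0805), DNTTIP2 and USP16. For PAXX they were TMSB10 (0.0759), CHCHD5 and NAA10. The spread of the members' own profiles on this scale was 0.44 to 0.45.

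Other genes of end joining and of the choice between pathways were read from lists. None of 13 end processing and accessory factors was called between genotypes in the average, where 8.68% of all tested genes were, and the smallest p there belonged to IFFO1 (0.48, edgeR adjusted p = 0.0995) among those higher.

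In the list of 53BP1 and break choice, 16 genes that steer ends towards joining or resection, 1 rose and 4 fell after IR, a share near the 28.4% of all tested genes. TP53BP1, which encodes the chromatin reader 53BP1, rose (log2 fold change 0.59, SE 0.17, edgeR adjusted p = 0.0291). H2AX, the histone variant phosphorylated at breaks, fell by 0.81 on the log2 scale (edgeR adjusted p = 0.00319), and its log2 fold change was -0.34 with the offset for GC content and length (edgeR adjusted p = 0.0190), where that of TP53BP1 was 0.38 (0.0343). RIF1, the 53BP1 effector that holds back resection, fell by 0.80 on the log2 scale (edgeR adjusted p = 0.0112). The others were MAD2L2 (-0.54), a shieldin subunit, and MDC1 (-0.40), the reader of phosphorylated H2AX. RIF1 had 37.2 and 25.3 normalized CPM in untreated control cells, 17.6 and 28.5 in irradiated control cells, 50.6 and 64.4 in untreated KO1 cells, and 25.4 and 25.9 in irradiated ones. The untreated KO1 libraries were the highest, and RIF1 was the 1 gene of this list called between untreated genotypes (0.86, edgeR adjusted p = 0.00946). A count of 1 of 16 genes is near the 6.12% of all tested genes called in that comparison. In KO1 cells RIF1 (-1.18) and H2AX (-1.07) fell more than 2-fold, and in control cells neither was called. With the offset for GC content and length, H2AX in KO1 cells was at -0.56 (edgeR adjusted p = 0.0244), which is less than 2-fold. It was not called with a replicate block added to the offset (edgeR adjusted p = 0.113). RIF1 in KO1 cells was at -1.27 with the offset (edgeR adjusted p = 0.00189). A joint fit of the 8 libraries, with none left out, did not call RIF1 between untreated genotypes (log2 difference 0.88, edgeR adjusted p = 0.0988). Joint fits without 1 of the 4 untreated libraries gave 0.62 to 1.18. They cannot show whether the 4-library call rests on 1 library, since the joint fit had already lost it. The averaged IR call of RIF1 was lost without the B library of untreated KO1 cells (log2 fold change -0.71). Its call for IR within KO1 cells was lost without any 1 of the 4 KO1 libraries (-1.32 to -0.99). That of H2AX was lost without either B library (-0.88 and -0.89). The averaged H2AX call held without any 1 library. TP53BP1 was lost without either untreated control library or any of the other 3 B libraries (log2 fold change 0.45 to 0.59). MAD2L2 was lost without any 1 of the same 5 libraries (-0.55 to -0.42). MDC1 was lost without any 1 of 6 libraries, all but the A libraries of control cells (-0.43 to -0.30). The interaction was not called for RIF1 (-0.73, edgeR adjusted p = 0.99998) or H2AX (-0.49, edgeR adjusted p = 0.99998).

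Among 12 alternative end joining genes, 0 rose and 2 fell after IR, a share below the 28.4% of all tested genes. RAD50 of the MRE11 complex fell by 0.86 on the log2 scale (edgeR adjusted p = 0.0219), but 96.7% of its coding bases lie in exons of another gene on the same strand, and its 503 counts over the 8 libraries are uncertain. PARP2 fell by 0.37 on the log2 scale (edgeR adjusted p = 0.0396). The RAD50 call was lost without the A library of untreated control cells or either library of untreated KO1 cells (edgeR adjusted p of 0.0533 to 0.0676), and that of PARP2 without any 1 library but the A library of irradiated control cells (0.0681 to 0.144). Of the V(D)J genes only RAG1 passed the filter, with a log2 fold change of 0.96 that was not called (edgeR adjusted p = 0.0747).

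For comparison, of 12 homologous recombination genes 1 rose and 2 fell after IR, a share near the 28.4% of all tested genes. RAD51C rose (0.56, edgeR adjusted p = 0.0134), while XRCC3 (-0.51, edgeR adjusted p = 0.0208) and RAD51D (-0.48, edgeR adjusted p = 0.0276) fell. XRCC3 shares 54.0% of its coding bases with a gene on the opposite strand and RAD51D 71.3% with a gene on the same strand, so both values are uncertain. The RAD51C call was lost with the offset for GC content and length (0.37, edgeR adjusted p = 0.0940) and without the B library of untreated control cells (0.0547), that of XRCC3 without any 1 of the 4 B libraries (0.0622 to 0.0921), and that of RAD51D without those or the A library of untreated control cells (0.0701 to 0.112). XRCC2, another factor of this pathway, was the only gene of these 5 lists called between genotypes in the average (0.63, SE 0.15, edgeR adjusted p = 0.0264). The 5 lists hold 52 genes, and 8.68% of all tested genes were called in this contrast, so the lists held no excess of calls. XRCC2 had 6.94 and 5.90 normalized CPM in untreated control cells and 12.5 and 14.2 in untreated KO1 cells. This was a log2 difference of 1.04 (edgeR adjusted p = 0.00874), in a comparison where 6.12% of all tested genes were called. The direction is opposite to that in the study, which reported less XRCC2 transcript in RBM6 knockout clones than in control cells by RT-qPCR. The reason for this difference was not tested. After IR the values were 7.32 and 9.72 in control and 9.70 and 10.1 in KO1 cells, where the groups overlapped and the gene was not called. The untreated XRCC2 call was lost without any 1 of its 4 libraries (edgeR adjusted p of 0.0875 to 0.272), and the averaged one without any 1 library but the B library of irradiated control cells (0.0511 to 0.136).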

How the data were processed

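Poly(A) RNA libraries (TruSeq, paired-end reads of 150 bases) came from 8 samples in 4 groups of 2 biological replicates, so p-values measure the spread between 2 cultures. The authors aligned reads to hg38 and deposited whole-number counts per Ensembl gene without normalization. The submitters' processing notes name STAR and DESeq2, and the counting tool, annotation version and strand setting are not given in the sources used here. The study's mass spectrometry was not analysed here.

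Symbols, positions, lengths and GC content came from GENCODE v44, in which 57392 gene identifiers were found and 841 were not. The tests were run with edgeR 4.0.16 (TMM, filterByExpr, quasi-likelihood test) and, as an alternative, DESeq2 1.42.0, under R 4.3.3 with limma 3.58.1. Each pairwise comparison used its own 4 libraries, and averaged and interaction contrasts used all 8. With 1 library left out, the remaining libraries of all 4 groups were fitted together, also for a pairwise comparison. A call was a Benjamini-Hochberg adjusted p under 0.05 over all genes tested. The standard error was the log2 fold change divided by the square root of F, and 95% intervals used the t quantile at edgeR's degrees of freedom. With 2 libraries a group, no permutation within a pairwise comparison could reach 0.05. The GC and length offset was a smooth curve per library, with 4 degrees of freedom for each property. The fits were tested on simulated counts.

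Named genes were all members, called members of the other lists with at least a 2-fold change in a pairwise comparison, the smallest p in each direction of each averaged contrast, and the 3 most alike profiles. MAD2L2, MDC1, PARP2 and RAD51D were named after their values were seen. Results of some genes on these lists are not reported here. The members and lists were chosen with earlier results of these data known. Alternatives were other normalizations, filters and tests, a 2-fold limit, a replicate block, the offset, 1 joint fit, and each library left out.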

Additional observations from a re-analysis of the deposited data

How the results depend on the processing

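The number of members called depended on the setting mostly for IR. In control cells, where 1 member was called, 2 were called with upper quartile normalization, with DESeq2's Wald test, with no filter, with the GC and length offset, with a replicate block, and with both the block and the offset, and 0 with at least 10 counts in every library, with a 2-fold limit or with all 8 libraries in 1 fit. Leaving out 1 library gave 0 to 2, with 2 only without the A library of irradiated control cells. In KO1 cells, where 0 were called, 2 were called with DESeq2's Wald test and with no filter and 1, DCLRE1C, with the offset, while leaving out 1 library gave 0 to 1. Averaged over genotype, where 3 were called, 0 passed a 2-fold limit, and leaving out 1 library gave 0 to 5. The counts without each deciding library stand beside the averaged calls. Between genotypes after IR, where 0 were called, the replicate block with the offset called 1, PAXX (0.39, edgeR adjusted p = 0.00511). The cause of these changes was not tested. The replicate letters did not pair the libraries across treatments. The correlation over genes of the A replicates' deviations was 0.35 between the irradiated groups of both genotypes and 0.079 between the untreated groups. Between groups of different treatment it ran from -0.28 to -0.098. What irradiated libraries of the same letter share was not tested. The replicate block alone changed no other count of members called, with 3 in the averaged IR contrast and 0 between genotypes in untreated cells, while with both block and offset the DCLRE1C call in KO1 cells was lost again. RBM6 was called lower in KO1 cells after IR with the block, alone or with the offset (edgeR adjusted p = 0.00436 with both). With the block alone, the averaged IR calls of PARP2 and TP53BP1 were lost (edgeR adjusted p of 0.0667 and 0.0547).

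Over all genes, calls between genotypes after IR rose from 189 to 2416 with the block, and IR calls in control cells from 881 to 2098 with the offset. The share of calls that were higher in KO1 cells after IR rose from 30.7% to 41.3% with the offset. The IR change of NUDT16L1, not called in the main setting, was 0.35 and called with the offset, with or without the block. No called value of a member changed sign, but values not called did, such as the genotype differences of XRCC6 (-0.088 to 0.10) and XRCC4 (-0.23 to 0.20) in untreated cells and of PAXX after IR (-0.15 to 0.64), and the averaged IR change of POLL (-0.069 to 0.080). Depth limits LIG4, at 78 to 264 counts, DCLRE1C, at 108 to 282, XRCC4, at 134 to 308, and NHEJ1, at 5 counts in all.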
